A study of Mus musculus with 4 samples.

Results

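The genes described here are 10 that bind fatty acids, coat or fuse lipid droplets, or make and break down stored triglyceride: *Fabp1*, *Fabp4*, *Fabp5*, *Plin2*, *Cidec*, *Pnpla2*, *Lpl*, *Lipa*, *Dgat1* and *Dgat2*. They were chosen by name among 20923 protein-coding genes of the mouse. SMAD4 is the partner that receptor-activated SMAD proteins share when they carry TGFβ family signals to the nucleus. Its binding was measured by HT-ChIPmentation, a form of chromatin immunoprecipitation in which Tn5 transposase inserts the library adapters into bead-bound chromatin. The cells, alveolar macrophages (AMs) that live in the lung airspaces, were collected by bronchoalveolar lavage and sorted in aliquots of 200000 cells from wild-type C57BL/6J mice that were 9 weeks old per the study's methods. No genotype or treatment differed between the samples, which were 2 SMAD4 ChIPmentation libraries and 2 input libraries. Peak lists of both SMAD4 libraries were analysed, and the inputs contributed only to the control level that MACS3 set for a peak. The series' own description names a combination of ProteinTech antibodies against SMAD4, whereas the study's methods name Cell Signaling as the source. The labels do not say whether the replicates came from separate animals. Peak lists hold no expression values, so the cell type could not be checked against marker transcripts.

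A peak was assigned to a gene when its summit lay in the gene body or within 50 kb of a transcription start site (TSS) of the gene. Each gene had 1 TSS in the annotation, except *Cidec*, which had 2. Peaks of both replicates that overlapped by at least 1 bp were joined into a shared region. Fold enrichment is the pileup, the number of fragments stacked at the summit, over the control level, each with 1 added. All coordinates are mm10. The windows of the 10 genes held 32 of 16369 peaks in replicate 1, 37 of 19015 peaks in replicate 2, and 27 of 10964 shared regions. No shared region lay in the windows of more than 1 of the 10 genes. At 21 of the 27 regions a TSS of the listed gene was the nearest of all genes, and at 6 regions another gene was nearer.

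AMs take up and break down lung surfactant, a lipid-rich film, and therefore handle much fatty acid and sterol. Fatty acid binding proteins carry fatty acids through the cytoplasm, acyltransferases build them into triglyceride, and triglyceride is stored in droplets coated by perilipins. Lipases release the fatty acids again, at the droplet, in the lysosome or outside the cell. A SMAD4 peak near a gene records where the protein, or a complex holding it, was crosslinked to DNA, and it does not measure transcription of that gene.

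To show what DNA lay under the SMAD4 signal, 201-bp windows around the mean summit of the strongest shared region are printed for 7 of the genes, in order of fold enrichment. The strongest region was the one whose smaller fold of both replicates was largest. Sequences are the plus strand of the RefSeq assembly GRCm38.p6 (mm10), 5′ to 3′. Capitals mark matches, on either strand, to any of 12 short strings that transcription factors are known to prefer, and each match is named after the sequences.
*Plin2*, chr4:86690277-86690477, intergenic: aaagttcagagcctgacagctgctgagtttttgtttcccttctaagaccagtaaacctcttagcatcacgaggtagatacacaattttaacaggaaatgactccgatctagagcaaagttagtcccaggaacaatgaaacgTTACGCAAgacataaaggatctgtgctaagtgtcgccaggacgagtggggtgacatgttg
*Fabp4*, chr3:10247266-10247466, intron of *Fabp12*: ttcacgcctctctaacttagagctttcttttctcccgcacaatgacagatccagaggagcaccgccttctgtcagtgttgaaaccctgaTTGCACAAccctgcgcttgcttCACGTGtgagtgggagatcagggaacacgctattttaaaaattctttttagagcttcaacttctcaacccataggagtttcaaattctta
*Lpl*, chr8:68914463-68914663, intergenic: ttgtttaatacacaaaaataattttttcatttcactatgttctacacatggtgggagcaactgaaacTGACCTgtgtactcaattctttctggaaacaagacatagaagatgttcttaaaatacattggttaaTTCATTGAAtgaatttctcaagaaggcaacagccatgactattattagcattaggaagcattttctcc
*Fabp1*, chr6:71185290-71185490, intergenic: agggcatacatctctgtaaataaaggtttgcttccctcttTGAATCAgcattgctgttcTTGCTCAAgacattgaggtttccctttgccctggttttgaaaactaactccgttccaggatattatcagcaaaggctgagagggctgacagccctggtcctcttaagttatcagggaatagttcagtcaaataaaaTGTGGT
*Dgat2*, chr7:99190009-99190209, intergenic: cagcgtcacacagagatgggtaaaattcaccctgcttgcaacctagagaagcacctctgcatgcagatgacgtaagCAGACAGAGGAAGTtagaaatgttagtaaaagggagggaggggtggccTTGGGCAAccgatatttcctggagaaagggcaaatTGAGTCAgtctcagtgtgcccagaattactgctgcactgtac
*Dgat1*, chr15:76507420-76507620, intron 1 of *Dgat1*: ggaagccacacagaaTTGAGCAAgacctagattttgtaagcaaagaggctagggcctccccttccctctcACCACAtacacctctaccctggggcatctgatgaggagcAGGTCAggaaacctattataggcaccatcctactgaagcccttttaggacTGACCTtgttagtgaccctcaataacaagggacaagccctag
*Cidec*, chr6:113435974-113436174, promoter of *Cidec*: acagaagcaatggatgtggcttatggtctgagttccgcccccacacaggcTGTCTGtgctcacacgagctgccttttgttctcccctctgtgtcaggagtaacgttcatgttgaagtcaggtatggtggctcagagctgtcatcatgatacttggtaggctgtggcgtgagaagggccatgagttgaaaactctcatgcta

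In the *Plin2* window the only match was the C/EBP string, centred 44 bp to the right of the summit. The *Fabp4* window held a C/EBP string and an E-box. The *Lpl* window held the nuclear receptor core AGGTCA, read on the minus strand, and a STAT string. In the *Fabp1* window a C/EBP string lay 38 bp and an AP-1 string 57 bp to the left of the summit, and a RUNX string stood at its right end. The *Dgat2* window had 5 strings, with a SMAD, a PU.1 and an ETS string joined in 1 run of capitals, followed by C/EBP and AP-1. The *Dgat1* window held C/EBP, RUNX and 2 copies of AGGTCA in opposite orientation. The *Cidec* promoter window held the SMAD string CAGACA on the minus strand and no other string. A match is a description of letters, and occupancy by the named factor was not measured in these libraries.

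Every one of the 10 genes had at least 1 shared SMAD4 region in its window. Of all protein-coding genes, 8186 of 20923 (39.1%) had one, a background not limited to genes that AMs express. A shared region that lay nearest to the gene's own TSS was found for 8 of the 10 genes, against 20.0% of all protein-coding genes. The exceptions were *Fabp4* and *Pnpla2*. When both peaks of a region had to overlap by 50% of their lengths, *Fabp5* and *Pnpla2* had no shared region, and at a fold of at least 5 in both replicates *Fabp5*, *Pnpla2* and *Lipa* had none. At least 3 shared regions were found for *Fabp1*, *Plin2*, *Lpl*, *Dgat1* and *Dgat2*, against 10.3% of all protein-coding genes. Not all of these counts held: with 50% reciprocal overlap *Dgat1* had 1 and *Dgat2* 2, with summits within 100 bp *Dgat2* had 2, at a q-value of at most 0.001 *Fabp1* had 2, and at a fold of at least 5 *Fabp1* and *Dgat1* had 2 each. In windows of 10 kb plus the gene body *Fabp1* and *Plin2* had 2 and *Lpl* had 1. A shared region in the gene's own promoter, from 1 kb upstream to 100 bp downstream of the TSS, was present for *Cidec* and *Dgat1*, against 3.1% of all protein-coding genes. A shared region with at least 10-fold enrichment in both replicates was present for *Fabp1*, *Fabp4*, *Plin2*, *Lpl* and *Dgat2*, against 13.6% of all protein-coding genes. *Fabp1* and *Dgat2* passed that limit narrowly, each with 10.07-fold in replicate 1, and the *Fabp4* region lay nearer to *Fabp12*. The limits of 3 regions and of 10-fold were set after the values were seen. The genes were chosen by name for their roles and with earlier results of these data known, so these counts are given without a test.

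**Figure D1:**
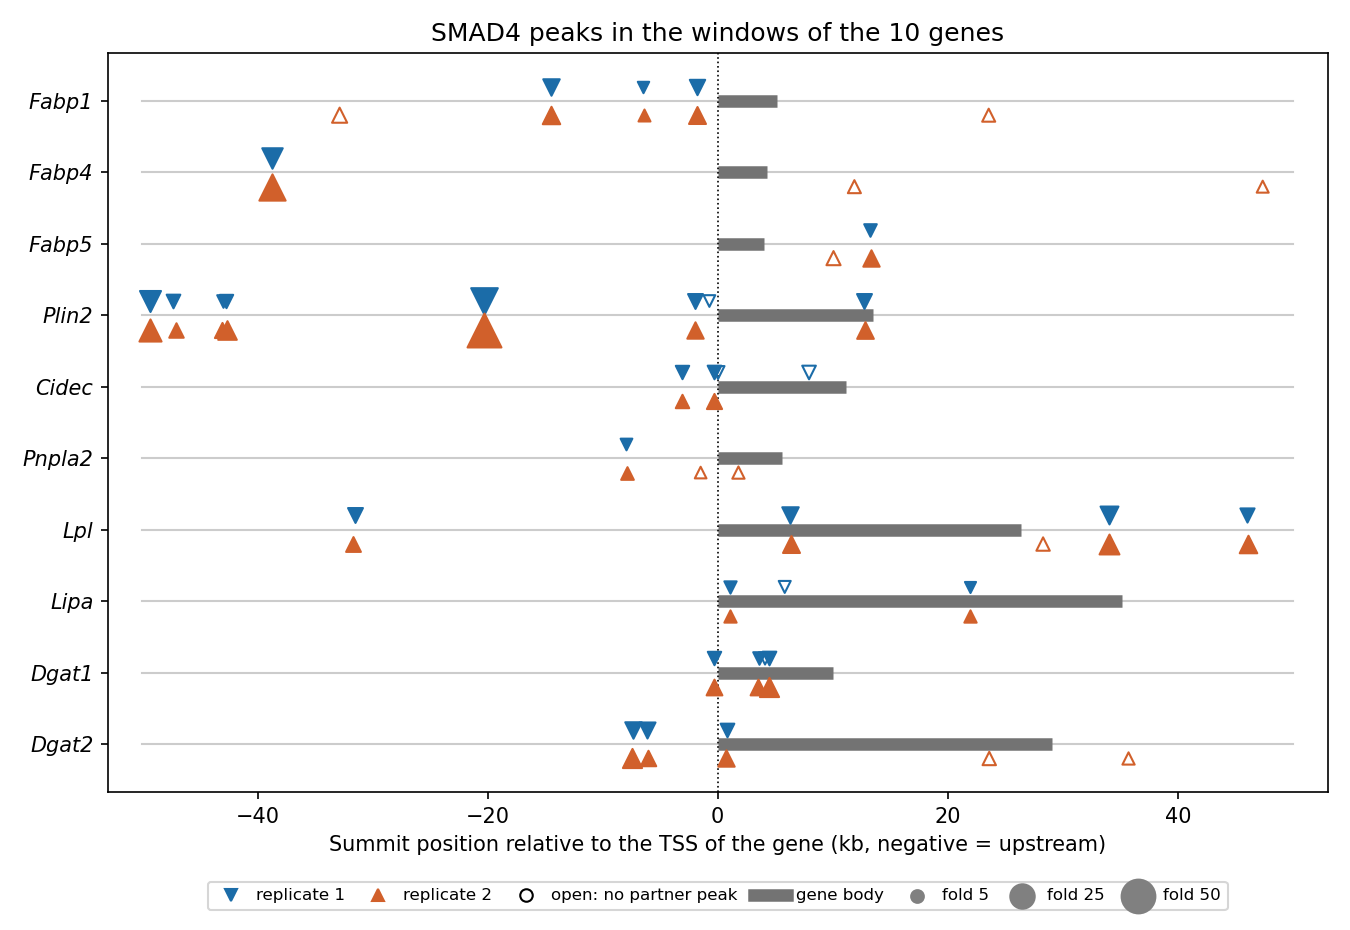
Position of every peak summit in the windows of the 10 genes, in kb from the nearer TSS of the gene with upstream to the left, for replicate 1 (blue, above each line) and replicate 2 (orange, below it). Marker area grows with fold enrichment, open markers have no partner in the other replicate, and the largest pair lies 20318 bp upstream of *Plin2*.

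The fatty acid carriers had 5 shared regions. *Fabp1*, the liver-type fatty acid binding protein (chr6:71199879-71205034, plus strand), had 3, all upstream and all nearest to its own TSS. The region 14489 bp upstream had folds of 10.1 in replicate 1 and 11.6 in replicate 2, with 30 and 32 fragments at the summit. A region 1815 bp upstream was of like size, with folds of 8.45 and 10.8. Between them, 6466 bp upstream, lay the weakest of the 3, at 3.58 and 4.19. Replicate 2 had 2 further peaks in this window, of 8.12- and 5.41-fold, that replicate 1 did not have. The 8.12-fold peak was nearer to the TSS of *Thnsl2*, and the 5.41-fold peak lay in an intron of *Smyd1*.

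*Fabp4*, the adipocyte-type carrier that macrophages also express (chr3:10204342-10208616, minus strand), had a single shared region, and it was strong. At chr3:10246829-10247911 the folds were 16.9 and 29.3, with 51 and 64 fragments. This region lay 38750 bp upstream of *Fabp4* but inside an intron of *Fabp12*, a related carrier gene of the same cluster, whose TSS was 6859 bp away. The authors' peak lists cannot assign it to either gene. Replicate 2 alone had 2 weaker peaks in the window, of 4.22- and 5.41-fold, and for both the TSS of another carrier gene was nearer, *Pmp2* for one and *Fabp9* for the other.

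*Fabp5*, the epidermal-type carrier (chr3:10012585-10016610, plus strand), had 1 shared region, 13277 bp downstream of its TSS in intergenic sequence. Its folds were 4.87 and 9.93, with 14 and 21 fragments. The fold in replicate 2 was 2.04 times that in replicate 1, while the median ratio over all shared regions was 1.39. A further peak, 10064 bp downstream with 6.77-fold enrichment on 14 fragments, was found in replicate 2 only. A stronger region of 12.3- and 28.9-fold lay just outside the limit, 54351 bp upstream of *Fabp5*, which was nevertheless the gene with the nearest TSS. The only other shared region outside the windows by less than 10 kb lay 55020 bp from the *Lipa* TSS, with 5.20- and 4.51-fold enrichment, nearest to *Ch25h*. Just inside the limit, 49309 bp upstream of *Plin2*, lay a region of 17.9 and 20.1.

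The droplet coat and fusion genes had 9 shared regions. *Plin2*, the perilipin that coats lipid droplets in macrophages (chr4:86656565-86670059, minus strand), had 7, and 1.07% of protein-coding genes had at least as many. The count was 4 where summits had to lie within 100 bp and 2 in the window of 10 kb plus the gene body. The region at chr4:86689973-86690972, 20318 bp upstream, had folds of 30.2 and 50.5 and summit pileups of 92 and 111 fragments. Of all 10964 shared regions, 77 (0.702%) had a smaller fold at least as large, this one included. Of all protein-coding genes, 0.516% had so strong a region in their window.

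The other *Plin2* regions were smaller. A region 1991 bp upstream had folds of 7.80 and 9.93, and a region in a coding exon near the 3′ end of the gene had 7.80 and 10.4. The remaining 4 regions lay between 42681 and 49309 bp upstream, and all were nearer to the TSS of *Dennd4c*. The outermost of these had folds of 17.9 and 20.1, and the other 3 ranged from 4.87 to 6.17 in replicate 1 and from 7.22 to 13.5 in replicate 2. In the *Plin2* promoter itself, 724 bp upstream of the TSS, only replicate 1 had a peak, of 3.90-fold and 11 fragments.

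*Cidec*, which promotes fusion of lipid droplets (chr6:113424634-113435760, minus strand), had 2 shared regions close to its start. The promoter region, 314 bp upstream, had folds of 6.17 and 8.12 with 18 and 17 fragments. The region 3078 bp upstream had 5.85 and 5.87. Replicate 1 had another 2 peaks in the window, of 5.20-fold at 30 bp downstream of the TSS and of 6.17-fold in an intron, nearer to *Rpusd3*, and replicate 2 had no peak overlapping either.

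**Figure D2:**
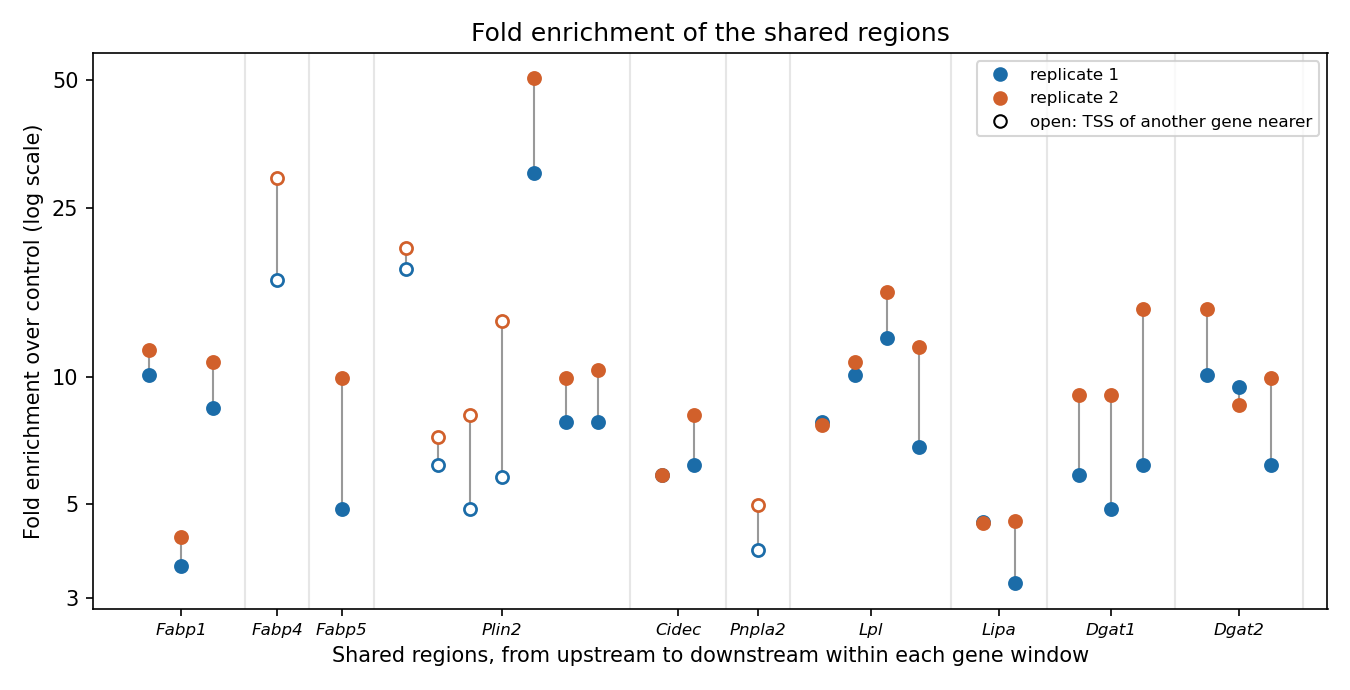
Fold enrichment over the control level (log axis) of the 27 shared regions, ordered from upstream to downstream within each gene, with replicate 1 in blue, replicate 2 in orange and a line joining both values of a region. Open circles are the 6 regions to which another gene's TSS was nearer, and the *Plin2* region at 30.2 and 50.5 stands above the rest.

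The genes of triglyceride and sterol ester hydrolysis had 7 shared regions. *Lpl* encodes lipoprotein lipase, which releases fatty acids from lipoprotein triglyceride outside the cell (chr8:68880555-68906932, plus strand). It had 4 shared regions, all nearest to its own TSS, and 5.85% of protein-coding genes had at least as many. The strongest lay 34008 bp downstream of the TSS, beyond the gene's end, with folds of 12.3 and 15.8 and 37 and 34 fragments. A region in intron 1 of 9 had folds of 10.1 and 10.8. The most distant, 46037 bp downstream, had 6.82 and 11.7, and the upstream one, at 31623 bp, had 7.80 and 7.67. All 4 peaks of replicate 1 in this window had a partner in replicate 2, which had 1 further peak of 5.87-fold.

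*Lipa*, lysosomal acid lipase (chr19:34492316-34527474, minus strand), had 2 weak shared regions, both in its introns. The region in intron 1 of 9, 1066 bp from the TSS, had folds of 4.55 and 4.51 on 13 and 9 fragments. The region in intron 6 had 3.25 and 4.56 on 15 and 12 fragments. Its control level in replicate 1 was raised, at 3.92 fragments where the genome-wide background was 2.08. Another intronic peak, 5823 bp downstream of the TSS with 4.22-fold enrichment on 12 fragments, was found in replicate 1 only.

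*Pnpla2*, the adipose triglyceride lipase that opens droplet lipolysis (chr7:141455188-141460743, plus strand), had the region with the smallest fold in replicate 1 among the strongest regions of the 10 genes, while in replicate 2 that of *Lipa* was smaller. Its only shared region, chr7:141447042-141447404, had folds of 3.90 and 4.96 on 11 and 10 fragments. It lay in the promoter of *Rplp2*, a ribosomal protein gene, 383 bp upstream of that TSS and 7920 bp upstream of *Pnpla2*. Of all shared regions, 96.7% were at least as strong. Replicate 2 alone had 2 peaks nearest to *Pnpla2*, 1485 bp upstream with 3.86-fold and 1800 bp downstream with 4.51-fold enrichment.

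The triglyceride synthesis genes had 6 shared regions, all nearest to their own TSS. *Dgat1* and *Dgat2* encode unrelated enzymes that both add the last fatty acid to make triglyceride. *Dgat1* (chr15:76502012-76511994, minus strand) had its 3 regions close together. A promoter region 326 bp upstream had folds of 5.85 and 9.02. Of the other 2, in intron 1 of 16, the one 3572 bp downstream had 4.87 and 9.02 and the one 4474 bp downstream had 6.17 and 14.4. In all 3 the fold was higher in replicate 2. A further peak, of 4.55-fold and 13 fragments, lay between the intronic regions in replicate 1 only.

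*Dgat2* (chr7:99153663-99182713, minus strand) had regions upstream and just inside the gene. The strongest, 7396 bp upstream, had folds of 10.1 and 14.4 with 30 and 31 fragments. A neighbour 6111 bp upstream had 9.42 and 8.57, the lowest ratio of replicate 2 to replicate 1 among the 27 regions, at 0.910. The third, in intron 1 of 7 at 787 bp from the TSS, had 6.17 and 9.93. Replicate 2 alone had 2 peaks downstream of the TSS, both nearest to *Uvrag*. The 5.87-fold peak lay in an intron of *Dgat2*, and the 4.51-fold peak lay beyond the gene's end.

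Ranked by their strongest shared region, the genes came in the order *Plin2*, *Fabp4*, *Lpl*, *Fabp1* and *Dgat2* (tied at 10.1), *Dgat1* and *Cidec* (tied at 6.17), *Fabp5*, *Lipa* and *Pnpla2*. Exact Poisson 95% intervals of the summit pileups were used to compare neighbours, and they cover counting error only. The interval at *Plin2* ran from 74.2 to 113 fragments in replicate 1 and from 91.3 to 134 in replicate 2. At *Fabp4* the intervals were 38.0 to 67.1 and 49.3 to 81.7, below those of *Plin2* in both replicates. At *Lpl* they were 26.1 to 51.0 and 23.5 to 47.5, overlapping *Fabp4* in replicate 1 but not in replicate 2. From *Lpl* downwards the intervals of each gene and the next overlapped in both replicates, so the order of neighbours was not resolved by them. Genes further apart could still be separate. The intervals of *Pnpla2*, 5.49 to 19.7 and 4.80 to 18.4, lay below those of *Lpl*, *Fabp1* and *Dgat2* in both replicates. Overlap is no test of a difference, and the counts of *Fabp5* and *Lipa* in replicate 2 were 21 and 9 fragments. The smaller fold was that of replicate 1 for every gene but *Lipa*, so the order is in effect that of replicate 1. By the folds of replicate 2 alone, *Dgat1* stood level with *Dgat2* and above *Fabp1*, and 6 genes changed place. The authors' q-values at these 10 regions ran from 1.15e-110 at *Plin2* to 0.00157 at *Pnpla2* in replicate 1, and from 2.90e-168 at *Plin2* to 0.000455 at *Lipa* in replicate 2.

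**Figure D3:**
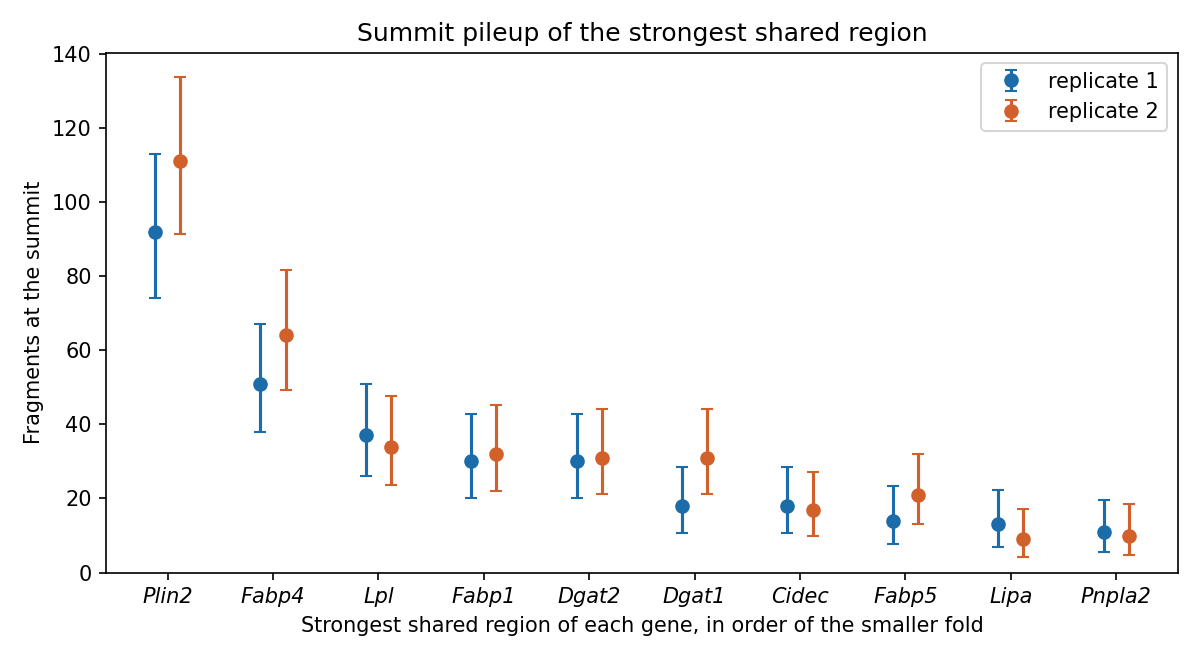
Fragments at the summit of the strongest shared region of each gene, in order of the smaller fold, with exact Poisson 95% intervals, for replicate 1 (blue) and replicate 2 (orange). *Plin2* lies above all others in both replicates, and from *Lpl* to *Pnpla2* the intervals of neighbours overlap.

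As a group, the 27 regions were of ordinary strength. Their median fold was 6.17 in replicate 1 and 9.93 in replicate 2, beside 6.82 and 9.48 over all shared regions. Their median pileups of 20 and 21 fragments equalled those of all shared regions. A fold of at least 10 in both replicates was reached by 7 of the 27 regions, against 23.3% of all shared regions. Fold was higher in replicate 2 at 24 of the 27, and at 87.2% of all shared regions. The pileup was higher in replicate 2 at 12 of the 27, and at 47.1% of all shared regions. The genome-wide control level was 2.08 fragments in replicate 1 and 1.22 in replicate 2, and that difference enters the folds. Summits of a region lay a median of 49 bp apart, as over all shared regions.

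Of the 27 regions, 16 were intergenic (40.5% of all shared regions were), 7 intronic (49.3%), 3 in a promoter (6.42%) and 1 in an exon (2.49%). One of the 3 promoters belongs to *Rplp2* rather than to a gene of the list. The median distance to the nearest TSS of any gene was 6859 bp, beside 18040 bp over all shared regions, which were not restricted to windows around genes, and 14 of the 27 regions lay within 10 kb of the TSS of the listed gene. Median GC content in the 201-bp windows was 44.8%, beside 43.8% over all shared regions, and no region was mostly repeat sequence.

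Most peaks in the windows were found in both replicates. In replicate 1, 27 of 32 peaks (84.4%) had a partner, beside 69.4% of all its peaks. In replicate 2, 27 of 37 (73.0%) had a partner, beside 59.2%. The mean over replicates was 78.7% ± 8.06 (SD, n = 2). Both shares rest on the same 27 pairs, so this SD reflects only the different numbers of peaks, 32 and 37. The 15 peaks without a partner had folds between 3.90- and 6.17-fold in replicate 1 and between 3.86- and 8.12-fold in replicate 2. Their medians were 4.55 and 5.41, beside 6.17 and 9.93 for the peaks with a partner. The highest, 32864 bp upstream of *Fabp1* but nearer to *Thnsl2*, had 17 fragments and lay above the replicate 2 median of 6.77 over all peaks.

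Among the other genes of lipid handling, 50 were examined by the same rule: further carriers, uptake and activation enzymes, droplet proteins, lipases with their regulators, and enzymes of triglyceride and sterol ester synthesis. This list was also written with earlier results of these data known, so its counts are no independent check and were not tested. At least 1 shared region was found for 38 of the 50, against 39.1% of all protein-coding genes. A region nearest to the gene's own TSS was found for 26, against 20.0%. By role, at least 1 shared region was found for 7 of 10 carriers, 6 of 7 uptake and activation genes and 6 of 10 droplet genes. It was found for 8 of 11 hydrolysis genes and 11 of 12 synthesis genes. Their mean was 1.86 shared regions per gene, beside 2.70 for the 10 genes and 0.829 for all protein-coding genes. Some windows overlap: the strong region of *Fabp4* counts also for *Fabp12*, and *Mogat2* neighbours *Dgat2*.

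The 6 of these 50 genes with the strongest region nearest to their own TSS were, in order, *Abhd5*, *Lpin1*, *Cd36*, *Gpat3*, *Soat1* and *Gpam*. *Abhd5*, the activator of the *Pnpla2* lipase, had folds of 38.0 and 54.6, where *Pnpla2* had 3.90 and 4.96. *Lpin1*, a phosphatidate phosphatase of triglyceride synthesis, had 37.6 and 51.9. *Cd36*, a fatty acid receptor at the cell surface, had 37.4 and 48.7 and 10 shared regions in all. *Gpat3*, *Soat1* and *Gpam*, which transfer acyl groups to glycerol phosphate or, for *Soat1*, to cholesterol, reached 24.4 and 34.7, 20.8 and 29.8, and 16.9 and 21.7 respectively. *Fabp12* equalled *Gpam* in the smaller fold through the region it shares with *Fabp4*.

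**Figure D4:**
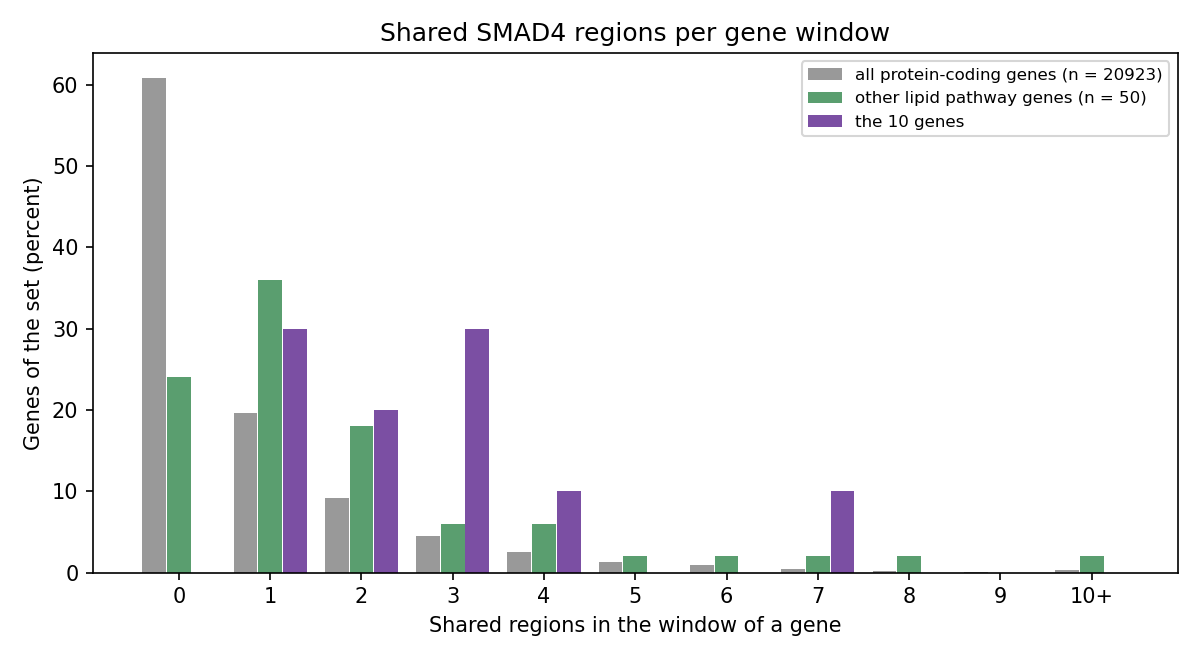
Percent of genes with a given number of shared SMAD4 regions in their window, for all 20923 protein-coding genes (grey), 50 other lipid pathway genes (green) and the 10 genes (purple). None of the 10 genes lies at 0, where most protein-coding genes and 12 of the 50 pathway genes lie. Both lists were chosen with earlier results of these data known.

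Strings near the summits were compared with all shared regions. Both strands were searched within 100 bp of the mean summit. At least 1 of the 12 strings was present in 25 of the 27 regions and in 92.4% of all shared regions. The C/EBP string TTGCNNAA was in 12 regions of 9 genes (44.4%, beside 40.8% of all), and the ETS string GGAAGT in 11 (40.7%, beside 33.1%). The PU.1 string GAGGAA, whose letters can overlap those of the ETS string, was in 5 (18.5%, beside 34.6%). The nuclear receptor core AGGTCA was in 8 regions (29.6%, beside 15.4%). These lay in the windows of *Plin2*, *Lpl* and *Dgat1*, and included all 3 regions of *Dgat1*. Those 42681 and 49309 bp upstream of *Plin2* were nearer to *Dennd4c*. A pair of AGGTCA copies 1 base apart in the same orientation, allowing 1 mismatch, was in none of the 27 and in 0.575% of all. The SMAD strings CAGACA and GTCTGG were in 6 (22.2%, beside 19.0%) and 2 (7.41%, beside 11.2%). The E-box CACGTG was in 3 (11.1%, beside 3.65%), RUNX TGTGGT in 7 (25.9%, beside 26.4%), AP-1 TGANTCA in 4 (14.8%, beside 12.3%), RBPJ TGGGAA in 5 (18.5%, beside 18.9%) and STAT TTCNNNGAA in 1 (3.70%, beside 8.07%). Several of these counts depended on the width searched. The PU.1 string was in 3 regions (11.1%, beside 20.7% of all) within 50 bp of the summit and in 9 (33.3%, beside 49.8%) within 200 bp. AGGTCA was in 7 (25.9%, beside 8.04%) within 50 bp and in 9 (33.3%, beside 26.6%) within 200 bp. The SMAD and ETS strings stood above the share of all regions within 50 bp and below it within 200 bp. CAGACA was in 5 (18.5%, beside 9.96%) and 7 (25.9%, beside 34.2%) at these widths. GTCTGG was in 2 (7.41%, beside 5.82%) and 3 (11.1%, beside 21.5%), and ETS in 8 (29.6%, beside 19.7%) and 11 (40.7%, beside 46.0%). Within 200 bp STAT was in 6 (22.2%, beside 14.9%) and RBPJ in 8 (29.6%, beside 34.3%). AP-1 was in 1 (3.70%, beside 6.71%) within 50 bp and in 7 (25.9%, beside 19.5%) within 200 bp. RUNX was in 3 (11.1%, beside 15.5%) and 11 (40.7%, beside 39.0%) at the same widths. With 27 regions that include neighbours of the same gene, these shares are a description and were not tested.

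**Figure D5:**
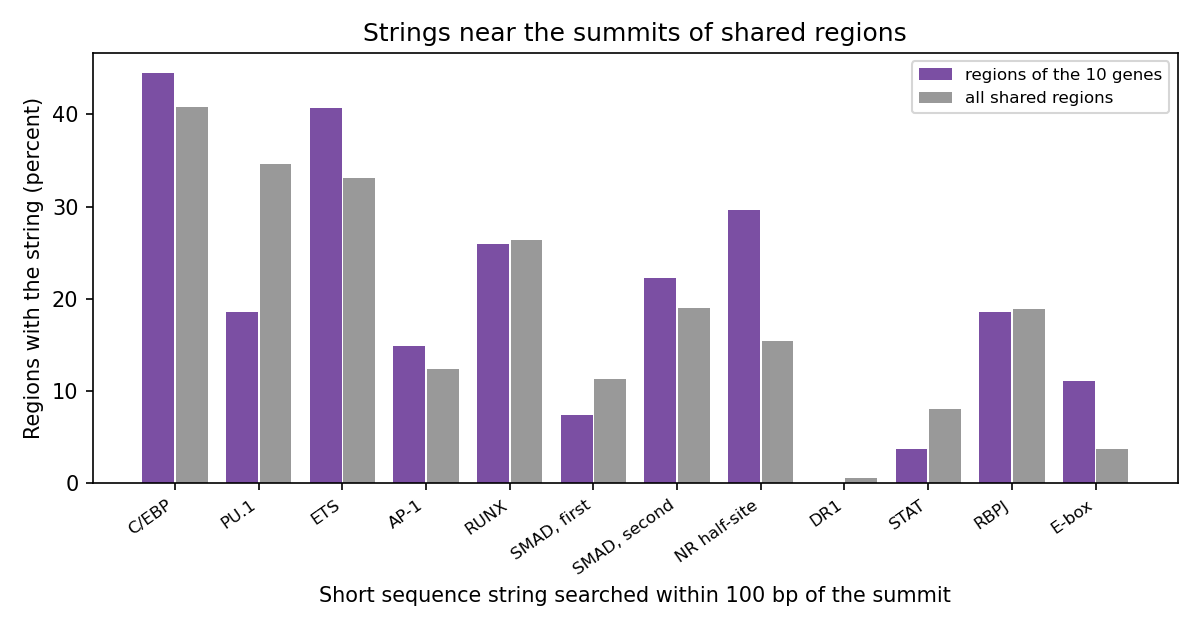
Percent of regions with each short string within 100 bp of the summit, for the 27 regions of the 10 genes (purple) and all 10964 shared regions (grey). The nuclear receptor core (NR half-site) stands at 29.6% beside 15.4%, and PU.1 at 18.5% beside 34.6%, both of which change with the width searched.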

How the data were processed

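Per the labels, reads were processed with CASAVA, bcl2fastq, cutadapt, Bowtie2 (build mm10), SAMtools and MACS3. The study's methods add duplicate marking with PICARD and peak calling against input at a q-value limit of 0.05. Each ChIPmentation library was called separately. The authors deposited, for each peak, a fold ratio over the control level, −log10 p and −log10 q at the summit, a score (not used here) and the summit offset. Aligned reads and total depth were not used here. Pileups and control levels were solved from fold and p, and depth is judged from them.

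Peaks were joined and assigned to genes with RefSeq curated transcripts of GRCm38.p6, the assembly that mm10 names (45657 transcripts, 26089 genes). All peak ends lay within its chromosomes. The same windows were drawn for 20923 protein-coding genes. Windows, pileup recovery and string search were tested on simulated data. Replicate numbers follow accession order and pair no library with an input. With 1 condition and 2 replicates no test was run. The members and lists were chosen with earlier results of these data known, and the limits of 3 regions and 10-fold were set after the values were seen. All 10 genes are named, and of the 50 pathway genes the 6 with the strongest region nearest to their own TSS, with a tie. Python 3.11.15, pandas 2.3.3, scipy 1.17.1 and pysam 0.24.0 were used. Alternatives were other overlap rules, stricter q and fold limits, other windows, predicted transcripts and single replicates.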

Additional observations from a re-analysis of the deposited data

How the results depend on the processing

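The number of the 10 genes with a shared region stayed between 7 and 10 under every alternative. It was 8 with 50% reciprocal overlap or with summits within 100 bp, where *Fabp5* and *Pnpla2* had none (34.6% and 34.8% of all protein-coding genes had a region), 9 at a q-value of at most 0.001, where *Pnpla2* had none (38.2%), and 7 at a fold of at least 5, where *Fabp5*, *Pnpla2* and *Lipa* had none (33.2%). It was 10 with windows of 100 kb (54.9%) and in either replicate alone (53.4% without replicate 1 and 46.6% without replicate 2). With windows of 10 kb plus the gene body it was 8, without *Fabp4* and *Fabp5*, while the shared regions fell to 16, the peaks to 21 in replicate 1 and 19 in replicate 2, the pathway genes to 23 and all protein-coding genes to 20.6%. With 100 kb there were 46 shared regions and 55 and 66 peaks. The share of peaks with a partner was 61.2% with 50% reciprocal overlap and 58.3% with summits within 100 bp. Leaving out replicate 1 moved 6 genes in the order, and ranking by pileup over the background moved 2. Leaving out replicate 2 moved 0, but the smaller fold was already that of replicate 1 for every gene except *Lipa*. That 0 is therefore no sign of stability. Of 188 alternative values, 147 kept within the limit of 1.5 times or the replicate SD. That count overstates stability. All 10 gene bodies lie within 50 kb of a TSS, so leaving out the gene body changed no window of these genes. A further q-value limit, milder than 0.001, removed none of their peaks, as the largest q-value among them was 0.00448. Kept values also included falls from 10 to 7 genes and of *Fabp1* from 3 to 2 regions at a fold of at least 5. The number of the 10 genes with a region nearest to their own TSS ran from 6 to 9. The matching share of all protein-coding genes, 20.0% under the main rules, was not computed for the alternatives, so this range has no background beside it. Summit pileups as low as 9 fragments limit the order of the weaker regions. No paired analysis was possible because the results come from no test and the groups have no values to pair.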
